A study of Danio rerio with 10 samples.

Results

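Transcripts with a transient peak at dome are RNAs of the zebrafish embryo whose mean level was higher at the dome stage than both the mean of the earlier stages and the mean of the shield stage. Of the 16383 transcripts in the deposited count table, 16 met the rule for this pattern. Levels are in CPM, the count of a transcript per 1000000 counts of its library. The rule asked for at least 5 CPM in both dome libraries and under 5 CPM in the nuclear library of the 1000-cell stage. It also asked for a mean dome level more than 4 times both the mean of the 6 libraries from before dome (the early libraries) and the mean of the 2 shield libraries. The members were thus chosen by their measured levels at all 5 stages, and these levels by stage are given as a description without a test.

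The embryos were wild-type zebrafish (Danio rerio) of the AB strain, without any further allele or treatment beyond the enzymatic removal of the chorion. Pools of embryos were separated into a nuclear pellet and a cytosolic supernatant, and total RNA depleted of ribosomal RNA was sequenced. The stages ran from 64-cell over 256-cell and 1000-cell embryos to dome and then shield, each with 1 nuclear and 1 cytosolic library and no replicate. Library totals lay between 5909037 and 14311969 counts, so that 3 counts corresponded to 0.210 to 0.508 CPM. The files and the gene name tables used here paired none of the 16383 transcript IDs with a gene, so members are called by Ensembl transcript ID, no function is given, and neither the purity of the fractions nor the embryonic tissue was checked with marker genes.

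As background, a zebrafish egg carries RNA made by the mother, and the embryo's own genome is transcribed broadly from the mid-blastula transition, which falls around the 1000-cell stage. Dome is a blastula stage after this onset, and shield is an early gastrula stage, by which much maternal RNA has been degraded. A nuclear fraction holds RNA that is being made or kept in the nucleus. A cytosolic fraction holds RNA outside the nucleus, which is mainly RNA from the mother before the onset and later also exported RNA. These libraries give levels only, so the making and the loss of an RNA were not measured apart.

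A fall of more than 4-fold after dome was uncommon among transcripts whose mean rose more than 4-fold from the early libraries to dome. Both CPM conditions were met by 402 transcripts, and 229 of these were also more than 4 times higher at dome than in the early libraries. These 229 are called dome-onset transcripts here, although the condition on the early mean allows some to be present before dome. Of them, 167 (72.9%) had a higher mean level at shield than at dome, 31 were lower at shield by at most 2-fold and 15 by 2- to 4-fold. The remaining 16, or 6.99% of the 229, were the transcripts with a transient peak, so that 62 (27.1%) had a lower mean at shield by any amount. Their median dome/shield ratio was 8.90 over the 13 with a shield value above 0, against 0.388 for the 213 other dome-onset transcripts. The rule split the 229 by this same ratio, so the gap between the medians was fixed in advance. Over the 9568 transcripts kept after a filter on low values (10 or more counts in 2 or more libraries), which all 16 members passed through their dome counts, 15.6% were more than 4 times higher at dome than in the early libraries, 20.5% were more than 4 times higher at dome than at shield, and 1.23% were both. Fewer cells with a transcript and less of it per cell cannot be told apart in these libraries of whole embryos.

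**Figure D1:**
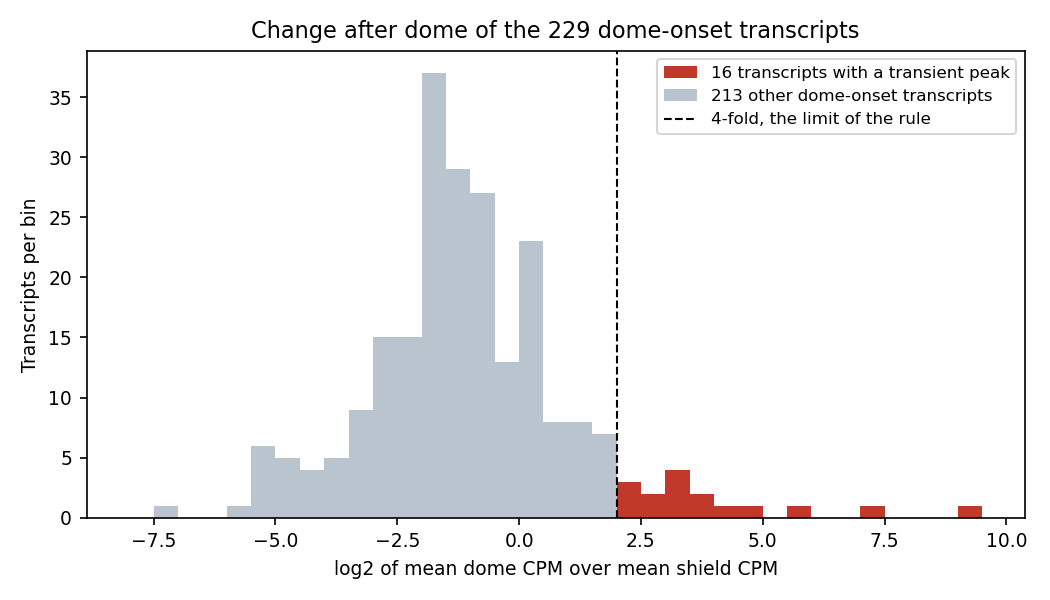
Number of transcripts (y axis) by the log2 ratio of mean dome CPM to mean shield CPM (x axis) for the 229 dome-onset transcripts, with the 16 members in red, the 213 others in grey and the 4-fold limit of the rule dashed. Shield means of 0 were drawn at 0.2 CPM. The members form the right tail of a distribution in which 167 transcripts were higher at shield than at dome.

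The members were of low to moderate abundance. Their mean dome level ran from 5.19 to 126 CPM with a median of 12.9 CPM, against a median of 16.4 CPM for the other dome-onset transcripts, whose highest level was 614 CPM. A mean of 20 CPM or more was reached by 5 members, 4 lay between 10 and 20 CPM, and 7 were under 10 CPM. The exact 95% Poisson interval of the dome level, which covers counting error only, lay above 5 CPM in both dome libraries for 9 members and included 5 CPM in at least 1 library for the other 7. In stage order and nuclear before cytosolic, the members' summed levels were 7.50 and 66.2 CPM at 64-cell, 36.2 and 14.9 CPM at 256-cell, 13.1 and 140 CPM at 1000-cell, 388 and 326 CPM at dome, and 23.0 and 17.0 CPM at shield. The uneven early sums came from 3 members.

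**Figure D2:**
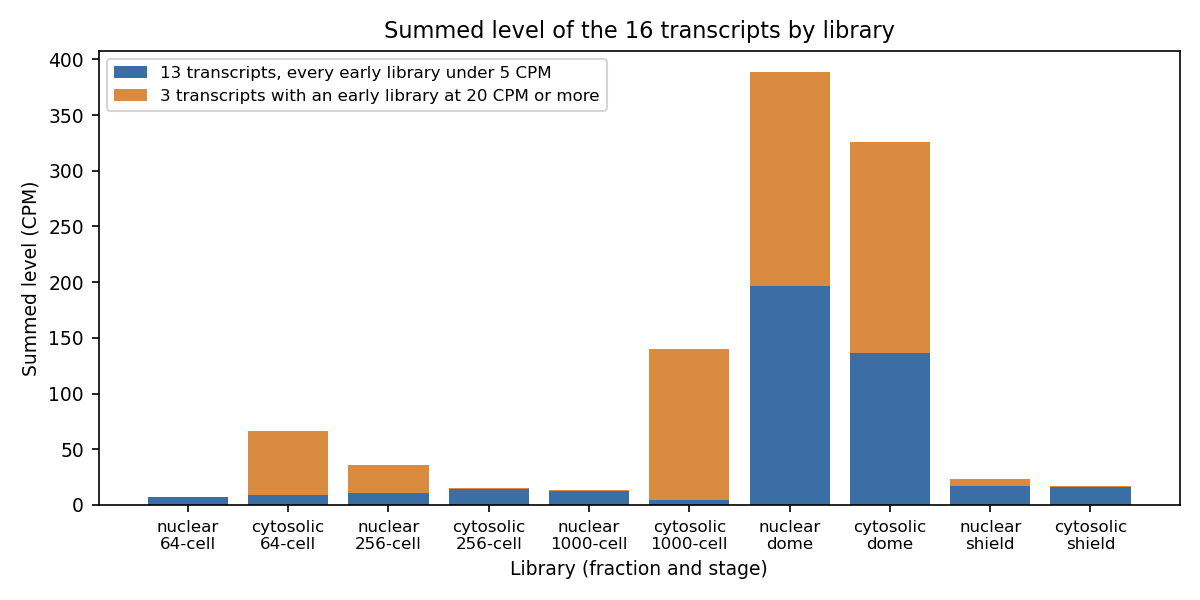
Summed level in CPM (y axis) of the 16 transcripts in each of the 10 libraries (x axis, nuclear then cytosolic within a stage). Orange marks the 3 transcripts with an early library at 20 CPM or more, and blue the 13 others, whose sums were 197 and 136 CPM in the nuclear and cytosolic dome libraries and at most 14.3 CPM in any early library.

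The 3 members with an early library at 20 CPM or more did not show a plain dome peak. ENSDART00000011718, the most abundant member at dome, had 1668 counts in the nuclear and 1457 in the cytosolic dome library, or 126 CPM in each. It had 1587 counts (135 CPM) in the cytosolic 1000-cell library and 0 counts in the other 7 libraries. Its highest level was thus at the 1000-cell stage, in the cytosolic library, while its nuclear 1000-cell library held 0 counts. Against a floor of 3 counts in each shield library, its dome level was at least 247-fold higher by the nuclear libraries and at least 335-fold higher by the cytosolic libraries.

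ENSDART00000049136 was the second most abundant. Across the stages its nuclear libraries had 0.476, 25.4, 0.653, 44.6 and 0.677 CPM, and its cytosolic libraries had 27.3, 0.529, 0.427, 36.8 and 0.626 CPM. Beside dome it was therefore high in the cytosolic library at 64-cell and in the nuclear library at 256-cell, and low in the other library of both stages. ENSDART00000140341 had 0.119, 0.143, 0.131, 21.2 and 5.25 CPM in the nuclear libraries and 29.6, 0.106, 0.0854, 27.7 and 0.25 CPM in the cytosolic ones. Its cytosolic 64-cell library was its highest, above both dome libraries.

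Such an isolated early value was looked for in the whole table, by a criterion chosen after the members' values were seen. Of 4507 transcripts with at least 20 CPM in some early library, 76 (1.69%) had under 1 CPM in at least 4 of the 6 early libraries. The 3 members were among these 76, and since the criterion was set on their values it shows only that other transcripts of the table have such a profile. The mean over 6 early libraries in the rule admits a single high library where the dome level is high. When the mean dome level had to exceed 4 times each early library, 10 members were left. The 6 lost were not only those with an isolated high library. ENSDART00000082475, ENSDART00000050077 and ENSDART00000144322 were lost with no early library above 4.05 CPM, at mean dome levels of 6.36, 6.20 and 5.19 CPM.

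The 13 other members had every early library under 5 CPM, the highest being 4.05 CPM. By CPM, both dome libraries were above each of the 8 other libraries in all 13, as they were in 14 of the 16 members. This holds for 4.23% of the 9568 transcripts, but the rule used this contrast and the count is no evidence of its own. For ENSDART00000125253 it depends on how the libraries are scaled, as its cytosolic level was 5.26 CPM at dome and 4.76 CPM at shield. The median level of the 13 was 11.2 CPM in the nuclear and 6.90 CPM in the cytosolic dome library, against 0.846 and 1.00 CPM in the nuclear and cytosolic shield libraries.

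**Figure D3:**
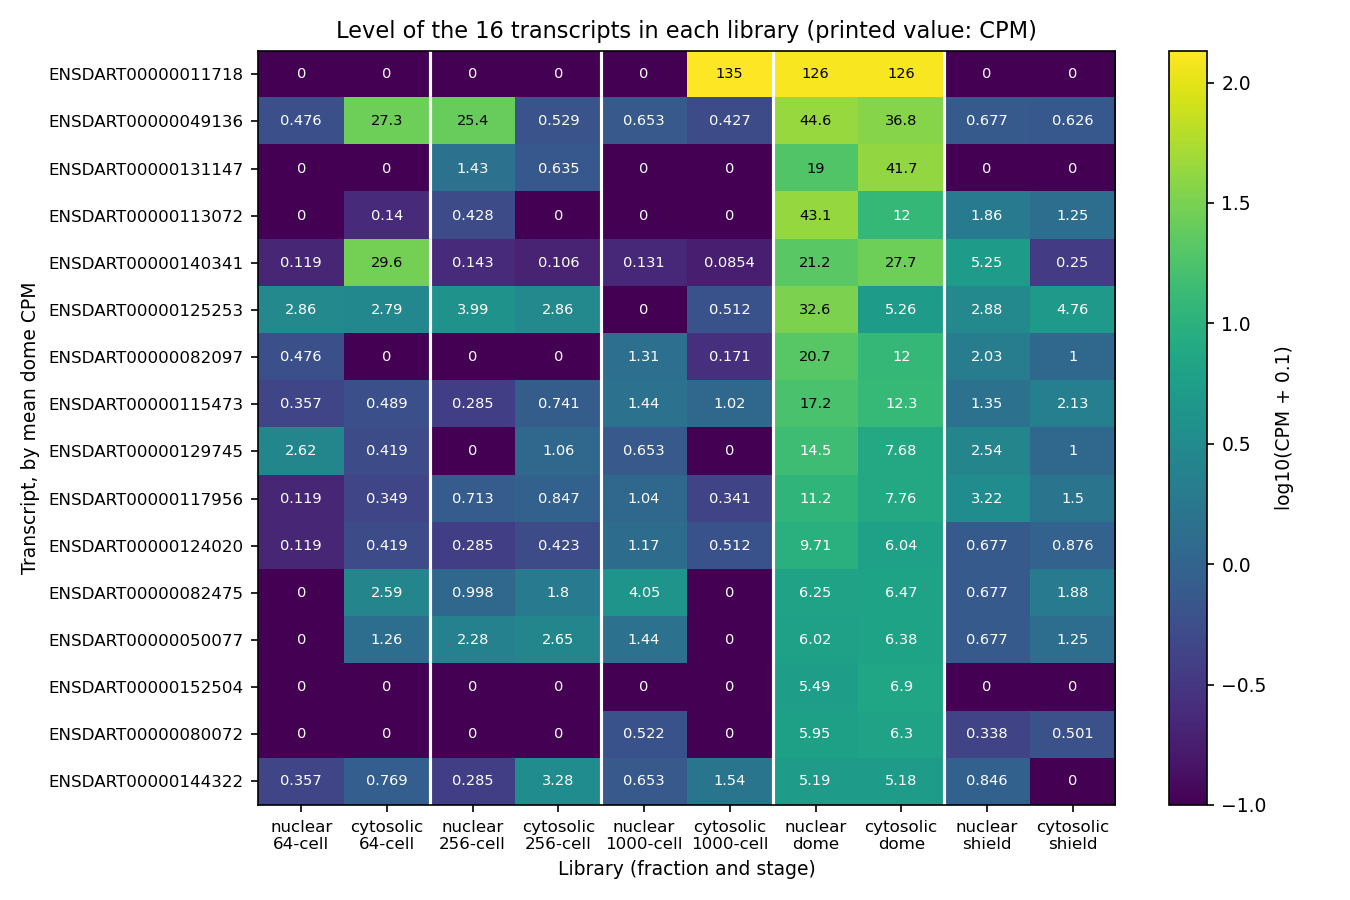
Level of each of the 16 transcripts (rows, by mean dome CPM) in each library (columns, nuclear then cytosolic within a stage), coloured by log10(CPM + 0.1) and printed in CPM. The dome columns are bright in all rows, and isolated bright cells before dome stand in the rows of ENSDART00000011718, ENSDART00000049136 and ENSDART00000140341.

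Among the 13, the early libraries of 3 members were all under 1 CPM. ENSDART00000113072 had 573 counts (43.1 CPM) in the nuclear and 139 counts (12.0 CPM) in the cytosolic dome library. It had 0 counts in 4 early libraries, 2 counts in the cytosolic 64-cell and 3 in the nuclear 256-cell library, and 11 nuclear and 10 cytosolic counts at shield. Its dome level was 291 times the early mean and 17.7 times the shield mean. ENSDART00000152504 was detected only at dome, with 73 nuclear and 80 cytosolic counts (5.49 and 6.90 CPM) against 0 counts in each of the 8 other libraries. Its dome level was at least 10.8-fold above the shield floor in the nuclear and at least 18.4-fold in the cytosolic fraction. ENSDART00000080072 had 79 nuclear and 73 cytosolic counts at dome (5.95 and 6.30 CPM), against 2 and 4 counts at shield. Before dome it had 4 counts in the nuclear 1000-cell library and 0 in the 5 other early libraries.

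The other 10 members reached between 1 and 5 CPM in some early library. ENSDART00000131147 had 252 nuclear and 483 cytosolic counts at dome (19.0 and 41.7 CPM). It had 10 counts in the nuclear and 6 in the cytosolic 256-cell library and 0 in the 4 other early and both shield libraries. The fall to the same shield floor was 37.4-fold in the nuclear and 111-fold in the cytosolic fraction. The lower ends of the 95% counting intervals of dome over shield were 30.2-fold and 89.9-fold. ENSDART00000125253 was present at a low level from the start, with 2.86, 3.99 and 0 CPM in the early nuclear and 2.79, 2.86 and 0.512 CPM in the early cytosolic libraries. At dome it had 32.6 CPM in the nuclear and 5.26 CPM in the cytosolic library, against 2.88 and 4.76 CPM at shield. By CPM its cytosolic dome level was 1.11 times that at shield with a 95% counting interval of 0.726 to 1.71. On the TMM-scaled log2 scale described further on, the cytosolic dome/shield ratio was -0.37, so that the direction of the cytosolic change depends on the scaling.

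ENSDART00000082097, ENSDART00000115473, ENSDART00000129745, ENSDART00000117956 and ENSDART00000124020 formed a run of similar profiles. Their nuclear dome levels were 20.7, 17.2, 14.5, 11.2 and 9.71 CPM in that order, and their cytosolic dome levels were 12.0, 12.3, 7.68, 7.76 and 6.04 CPM. None of their early libraries was above 2.62 CPM, and each was detected in both shield libraries, at 0.677 to 3.22 CPM. All 5 were higher in the nuclear than in the cytosolic dome library. ENSDART00000117956 had the smallest drop of all members, with a mean of 9.49 CPM at dome against 2.36 CPM at shield, a ratio of 4.02.

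ENSDART00000082475, ENSDART00000050077 and ENSDART00000144322 had low dome levels and were detected at several early stages. Their mean dome levels were 6.36, 6.20 and 5.19 CPM, which were 4.05, 4.88 and 4.52 times their early means. Set against their highest early library, these dome levels were 1.57, 2.34 and 1.58 times as high, the lowest such ratios among the 13 members under 5 CPM before dome. In the 3 members with an early library at 20 CPM or more, that ratio was 0.927 for ENSDART00000011718, 1.49 for ENSDART00000049136 and 0.826 for ENSDART00000140341. For ENSDART00000082475 that library was the nuclear 1000-cell one, at 4.05 CPM.

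Members lay close to each limit of the rule. The members nearest to 4 times the early mean had ratios of 4.05 and 4.46, and the transcripts just outside had 3.998 and 3.69. Nearest to 4 times the shield mean were members with ratios of 4.02 and 4.96, and just outside were transcripts with 3.69 and 3.52. The lower dome level was 5.18 and 5.26 CPM in the members nearest to 5 CPM, and 4.66 CPM in both nearest transcripts outside. When library sizes were scaled by TMM (trimmed mean of M values, which discounts a few abundant transcripts), 13 members met the rule, and 8 met it also when each early and each shield library had to be exceeded 4-fold.

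How far the level dropped after dome was then described in each fraction, on the log2 CPM scale with TMM scaling and a prior count of 2. The median log2 dome/shield ratio of the members was 3.40 in the nuclear fraction (range 1.69 to 9.24) and 2.70 in the cytosolic fraction (range -0.37 to 9.24). The ratio was larger in the nuclear fraction for 11 members and in the cytosolic fraction for 5. This split depends on the scaling, as the TMM factor of the cytosolic shield library was 0.714. For the 3 members with 0 counts in both shield libraries, the larger fall cannot be assigned to a fraction. Of these, ENSDART00000011718 was counted as nuclear on a log2 difference of 0.0021. By CPM, shield counts of 0 were set to the floor. The ratio was then larger in the nuclear libraries for 8 members and in the cytosolic libraries for 8. The 3 members with 0 counts in both shield libraries all fell on the cytosolic side. There the shield floor was lower, at 0.375 CPM against 0.508 CPM for nuclear. Their cytosolic dome levels were also higher than the nuclear ones, at 125.7 against 125.6, 41.7 against 19.0 and 6.90 against 5.49 CPM. An equal floor would thus leave them on the same side, but their ratios still rest on an assumed floor. With library totals the median was 3.44 for the nuclear libraries and 3.13 for the cytosolic libraries. The exact 95% counting interval of the untransformed CPM ratio lay above 4 for 10 members in the nuclear fraction, for 9 in the cytosolic fraction and for 7 in both. It lay above 1 for all 16 in the nuclear fraction and for 15 in the cytosolic fraction, ENSDART00000125253 being the exception. The rule itself asked for a dome mean more than 4 times the shield mean. These counts therefore describe the members and are no evidence of a fall. For ENSDART00000140341 the nuclear level at dome was 4.05 times that at shield (interval 2.79 to 6.07) and the cytosolic level was 111 times that at shield (interval 30.4 to 918), where the cytosolic shield library held 2 counts.

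The division between the fractions entered the rule in 2 ways. Both dome libraries needed 5 CPM, so that the 5 members with a mean dome level under 7 CPM could not differ 2-fold between the fractions at dome. The limit of 5 CPM at 1000-cell was set on the nuclear library alone, which admits a transcript such as ENSDART00000011718 that was high in the cytosolic library of that stage. Counts of members by fraction are therefore a description. The shares in other sets are printed beside them for scale, and no difference from the members is read from them. At dome 13 of the 16 members lay within 2-fold between the fractions. Their median log2 nuclear/cytosolic ratio was 0.14, with a range of -1.12 to 2.59, against 0.90 for the 213 others and 0.06 for all 9568 transcripts. The nuclear level was 2-fold or more higher for 2 of the 16 members (12.5%), against 45.1% of the other dome-onset transcripts and 20.7% of all transcripts. The cytosolic level was 2-fold or more higher for 1 member (6.25%), against 0.939% of the other dome-onset transcripts and 6.17% of all transcripts, which did not have to meet the dome minimum. Without the 3 members that had an early library at 20 CPM or more, the median was 0.47. With 1 library per fraction at dome, these differences between sets were not tested.

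The 2 most nuclear members at dome were ENSDART00000125253, with a nuclear/cytosolic ratio (TMM sizes, here and in the plot of ratios by member) of 6.21 (95% counting interval 4.74 to 8.26), and ENSDART00000113072, with 3.61 (2.99 to 4.37). The most cytosolic were ENSDART00000131147, with 0.456 (0.390 to 0.533), and ENSDART00000140341, with 0.768 (0.653 to 0.905). The interval lay above 1 for 8 members, below 1 for 2 and included 1 for 6. These 6 were the 5 members of lowest dome level and ENSDART00000011718, whose ratio was 1.00 (0.933 to 1.08). The 5 of lowest level had 129 to 158 counts over both dome libraries, and no difference between the fractions was detectable for them at this depth. The minimum of 5 CPM in both dome libraries also kept their ratios close to 1, so nothing is read from these 5 intervals.

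**Figure D4:**
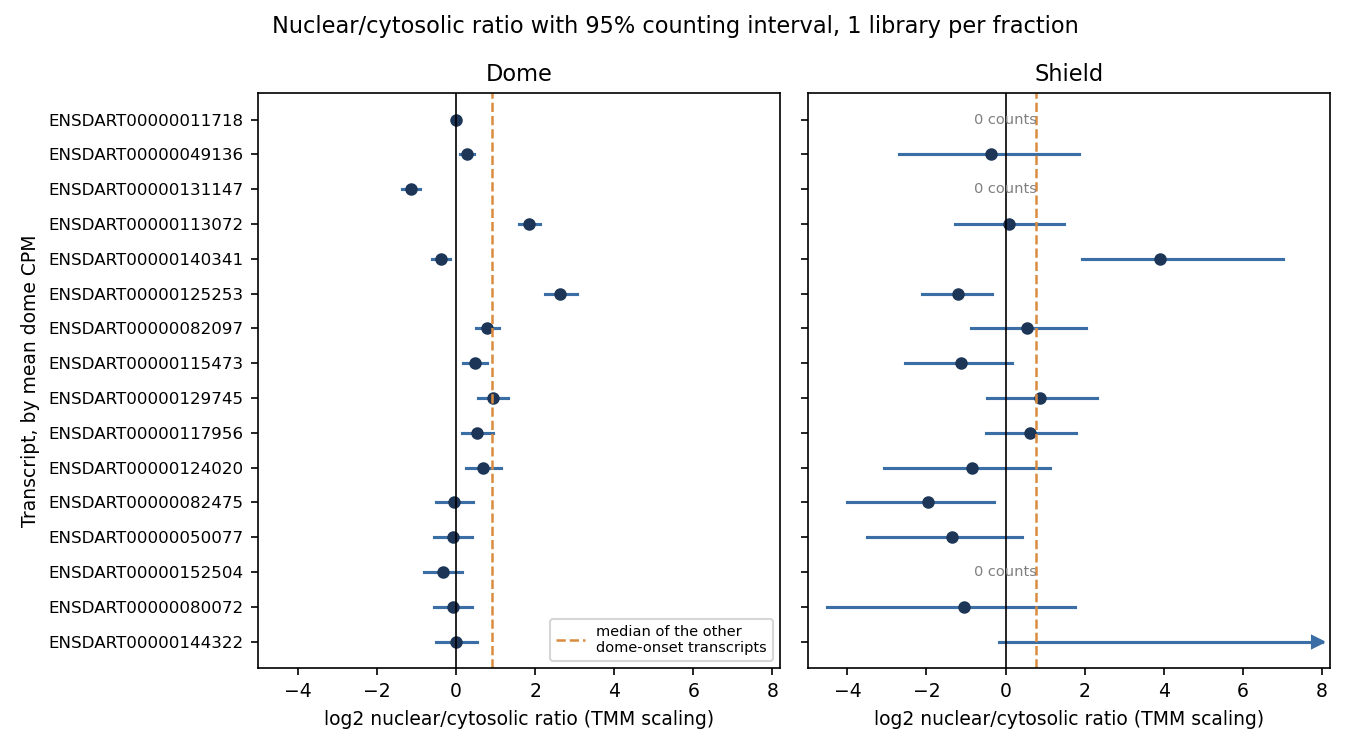
Log2 nuclear/cytosolic ratio (x axis, TMM scaling, no prior count) of each member (y axis) at dome and at shield, with the exact 95% counting interval as a line. An arrow marks a ratio with 0 cytosolic counts, whose interval has no upper end and is drawn to the right edge. The dashed line is the median of the 213 other dome-onset transcripts. It was computed with a prior count of 2 and is thus not on exactly the same scale as the points. At dome 8 intervals lie above a ratio of 1 and 2 lie below it, and at shield 10 include it.

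At shield the members had few counts, and 3 of them had none in either library. With TMM sizes, the interval of the nuclear/cytosolic ratio lay above 1 for 1 member, below 1 for 2 and included 1 for 10. With library totals it lay above 1 for 3, below 1 for none and included 1 for 10. A nuclear level 2-fold or more higher was seen for 2 members, against 29.5% of all transcripts, and a cytosolic level 2-fold or more higher for 4, against 21.2%. The rule chose members for low shield levels, at which few can reach 2-fold with a prior count of 2, so nothing is read from these shares. The first count was 4 with library totals. ENSDART00000125253 was the only member with at least 50 counts over both shield libraries, and its ratio there was 0.434 (0.230 to 0.787) with TMM sizes. With library totals it was 0.605 (0.320 to 1.10), an interval that includes 1.

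Whether any member was relatively more abundant in 1 fraction was tested with edgeR's quasi-likelihood test with stage as a block, on the whole table and with Benjamini-Hochberg adjustment. Stages stood in for replicates in this test, so its p-values set the mean fraction difference against its spread between stages. The spread used for each transcript was drawn towards that of all transcripts tested. Without the dome libraries only 11 of the 16 members passed the filter on low values, and the others entered through dome. For a member such as ENSDART00000152504, with counts at dome only, no spread between stages could be measured from its own counts. Over all 5 stages, 0 of the 16 members passed an adjusted p-value of 0.05, against 0% of the 9568 transcripts tested. No member had an unadjusted p-value under 0.05, against 522 of the 9568 transcripts. At so low a share few or none of 16 would be met, so nothing is read from this count. DESeq2 called 106 transcripts (1.11%) of which 0 were members. The smallest unadjusted p-value of a member was 0.105 for ENSDART00000082097, with a log2 nuclear/cytosolic fold change of 1.71 (SE 0.87) and an edgeR adjusted p-value of 0.825. ENSDART00000011718 had a log2 fold change of -3.64 with an SE of 3.86, the widest of the members.

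The same test over the 4 libraries of dome and shield, with 1 residual degree of freedom, called 0 members, against 0.0114% of the 8771 transcripts tested (1 transcript). Again 0 members had an unadjusted p-value under 0.05, against 573 of the 8771 transcripts, a share too low to set the members apart. DESeq2 called 155 transcripts (1.77%), none of them a member. The members' log2 fold changes were above 0 for 7 and below 0 for 9, with a median of -0.01 and SEs of 0.62 to 1.77. No fraction difference common to both stages was called for any member. The 3 members with 0 counts in both shield libraries gave no difference to measure at shield. The 5 members under 7 CPM could not differ 2-fold at dome, so nothing is read from the absence of calls.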

How the data were processed

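The authors deposited a table of whole-number counts per Ensembl transcript, with 1 column per library, and 0 columns were left unmatched to a sample. The submitters' processing notes name the build Zv9, Trimmomatic 0.27, STAR 2.6.0a and StringTie. How reads were divided among overlapping or near-identical transcripts, whether counting used strand, and whether the table covers every annotated transcript are not given in the sources used here. Values of single transcripts are uncertain in that respect, and CPM is relative to the table's own totals.

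CPM values used column totals. Log2 ratios used TMM library sizes from transcripts with 10 or more counts in 2 or more libraries, and a prior count of 2. Fraction tests used edgeR 4.0.16 in R 4.3.3 (glmQLFit, glmQLFTest), with DESeq2 1.42.0 as an alternative. The edgeR tests were also run on simulated counts with large known fold changes, set only in transcripts with higher counts than many members had. That run does not show how the tests perform at low counts. The SE is the log2 fold change divided by the square root of F. Counting intervals are exact 95% Poisson or binomial intervals. They and the floor of 3 counts per library cover at most counting error, as each fraction and stage has 1 library. Because reads without molecular identifiers may be copies of 1 molecule, they may understate that error too. Python 3.11.15 with pandas 2.3.3, SciPy 1.17.1 and matplotlib 3.10.9 was used.

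The members, rules and tests were chosen with earlier results of these data known. The naming rule gave members of highest dome level, and of largest and smallest nuclear/cytosolic ratio or fall, with at least 50 counts. The other members are named because the set is small, after their values were seen.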

Additional observations from a re-analysis of the deposited data

Results flagged for a closer look

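In 2 members the nuclear/cytosolic ratio lay on opposite sides of 1 at dome and at shield, with both counting intervals excluding 1 when library sizes were scaled by TMM. ENSDART00000125253 was higher in the nuclear library at dome and in the cytosolic library at shield, and its log2 ratio at dome minus that at shield was 3.74. With library totals its interval at shield, 0.320 to 1.10, included 1. ENSDART00000140341 was higher in the cytosolic library at dome and in the nuclear library at shield, where it had 31 nuclear and 2 cytosolic counts, and its difference was -3.68. With library totals both of its intervals still excluded 1, at 0.651 to 0.902 for dome and 5.33 to 181 for shield. The differences between the stages were not tested, as each stage has 1 library per fraction. The share of all transcripts that meet the same criterion was not computed, so the 2 cases are not read as particular to the members.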

How the results depend on the processing

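The number of members depended on the limits of the rule. It was 44 at a fold of 2, 7 at a fold of 8, 39 with a minimum of 2 CPM and 7 with a minimum of 10 CPM. With 1 early stage left out of the early mean it was 14 to 16, of which 12 (without 64-cell), 13 (without 256-cell) and 14 (without 1000-cell) were among the 16. Conditions chosen after seeing the data gave 10 members when each early library had to be exceeded and 36 when the fall was taken from the cytosolic libraries only. At shield, the count of members with a nuclear level 2-fold or more above the cytosolic level was 4 with library totals, 1 without the 3 members that had an early library at 20 CPM or more, and 0 among members with at least 50 counts. The last setting left 1 member, so its median log2 nuclear/cytosolic ratio was -1.15, against 0.00 over all 16. In that median of 0.00, the 3 members with 0 counts in both shield libraries stand at 0 through the prior count alone. They hold the middle position, so the 0.00 does not show an even division between the fractions. The fraction test over all stages called 106 transcripts with DESeq2 and 0 with each stage left out in turn. At dome and shield, DESeq2 called 155, edgeR 3 without a filter and 0 without the stage block. None of these fits called a member. No paired analysis by replicate number was possible because the sample labels carry none and every column name ends in the same number.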
